A study of Mus musculus with 2 samples.

Results

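Potassium channel genes other than the SK genes were examined in single-nucleus RNA profiles of male mouse medial prefrontal cortex. They were chosen by symbol, as every row of the deposited table named Kcn with further letters and an end number, with Kcnn1 to Kcnn4 left out and a signal above 0 in either genotype average. The rule found 86 genes among 31053 in the table, of which 24005 were above 0 in either library. Kcnj1 and Kcnj15 matched the symbol and were listed at 0 in both libraries. The series holds 1 library labelled knockout (KO) and 1 labelled wild-type (WT). The members with the least signal were Kcnk16, at 0.00036 in the library labelled KO and listed at 0 in that labelled WT, and Kcna10, listed at 0 in the library labelled KO and at 0.000516 in that labelled WT. Averaged over the libraries, 54 members reached 0.05, the floor used below, and 32 did not.

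Potassium channels carry the outward current that ends an action potential and holds the resting potential of a neuron. Voltage-gated Kv channels open on depolarisation, inward rectifiers (Kir) and two-pore channels act near rest, and BK and Slack channels open with intracellular calcium or sodium. Auxiliary proteins such as KChIP, Kv beta and BK beta subunits set how fast the pores open and inactivate. Fast Kv3 currents are known for the narrow spikes of cortical Pvalb interneurons, and Kir channels of glia for clearing extracellular potassium.

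One group was Npas2 knockout mice and the other their wild-type littermates, taken at ZT20 in the dark phase of a cycle of 12 h light and 12 h dark. NPAS2 is a basic helix-loop-helix transcription factor of the circadian clock that pairs with BMAL1. The sources used here give neither strain and age nor the allele and the deleted part of Npas2. Prefrontal tissue of 4 mice was pooled per genotype before nuclei were isolated, so each genotype had 1 library and no difference between the libraries could be tested. Values are the authors' mean signal: each nucleus is scaled to 10000 counts and its share for the gene is averaged over nuclei. Transcripts were read by a 3' tag, and molecules were counted by unique molecular identifiers (UMIs). Brackets give 95% intervals that cover counting error only, not the spread between mice.

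The library labelled KO held 7161 nuclei at a mean of 3274 UMIs, and that labelled WT 5578 nuclei at 4034 UMIs, as worked out from the averages. Npas2 itself was at 1.39 in the library labelled KO and 1.29 in that labelled WT, a ratio of 1.08 (1.02 to 1.14). A 3' tag outside a deleted part checks nothing, so the genotype of either library was not shown by these data. The nuclei were spread unequally over the authors' clusters. Clusters 4, 10 and 17 held an estimated 17.2% of the nuclei labelled KO and 7.17% of those labelled WT, while clusters 6, 8, 14, 18 and 19 held 6.09% of those labelled KO and 24.5% of those labelled WT. All 9 oligodendrocyte markers were lower in the library labelled KO (sum 2.65, against 8.27 in that labelled WT), as were 9 of 9 astrocyte markers (5.76 labelled KO, 11.6 labelled WT) and 10 of 10 microglia markers (2.55 labelled KO, 4.43 labelled WT). Oligodendrocyte precursor markers were lower for 7 of 8, with close sums (4.96 labelled KO, 5.08 labelled WT). Striatal spiny neuron markers were lower for 10 of 12, also with close sums (21.5 labelled KO, 21.7 labelled WT). All 6 markers of olfactory type neurons were higher (1.09 labelled KO, 0.102 labelled WT), and no marker was at 0 in either library.

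Cluster values pool both libraries, so cell types were described without regard to genotype. By markers, clusters 0, 1, 2, 5, 7, 15, 16 and 20 were taken as excitatory-like, with cluster 1 layer 2/3-like, cluster 5 layer 5-like and clusters 2 and 16 layer 6-like. Excitatory markers were raised for only 2 of 8 in clusters 1 and 5, the same as in cluster 3, which was kept out of this class. Layer 2/3 markers were raised for 5 of 5 in cluster 1 and 0 of 5 in cluster 3. Layer 5 markers were raised for 4 of 6 in cluster 5 and 1 of 6 in cluster 3. Clusters 9, 11, 12 and 13 were inhibitory-like, cluster 9 with Pvalb markers and cluster 12 with Vip markers, and cluster 6 carried all 12 striatal spiny neuron markers. Inhibitory markers were raised for 6 of 6 in cluster 10 and for 5 of 6 in clusters 4, 6 and 11. Clusters 4, 6 and 10 were kept out of the inhibitory-like class, and contrasts with that class depend on this choice. Cluster 8 was oligodendrocyte-like, cluster 18 microglia-like and cluster 19 oligodendrocyte precursor-like, and cluster 14 carried astrocyte, endothelial and pericyte markers together. Cluster 10 was neuroblast-like. Clusters 3 (leading genes Ndst4 and Tfap2d), 4 (Dnah11, Adamts19 and Vipr2) and 17 (Olfr111 and Cdhr1) stayed unnamed, and clusters 21 and 22, under 50 nuclei each, were left out. Since the clusters were made from these same nuclei, the patterns below are descriptions without a test.

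**Figure D1:**
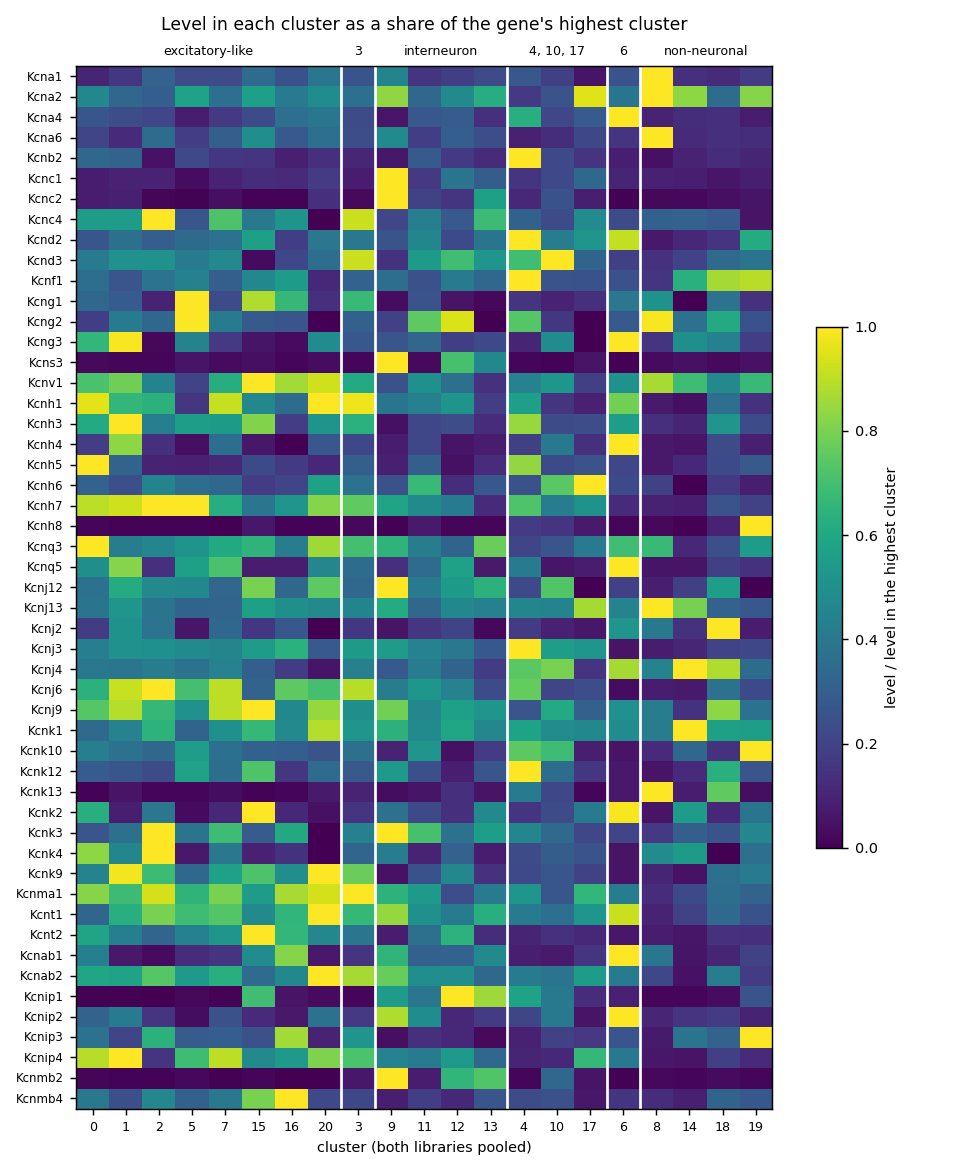
Level of 51 of the 54 members above the floor (rows, grouped by subfamily) in the 21 clusters of at least 50 nuclei (columns), as a share of the level in that gene's highest cluster, on a linear colour scale with both libraries pooled. Kcnc1, Kcnc2, Kcnmb2 and Kcns3 were highest in Pvalb-like cluster 9, and Kcnh8 stood at its highest level in cluster 19.

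Few members had a highest cluster far over the next, at shares not far from those of all genes above the floor. Kcnh8 alone had a highest cluster at least 3-fold over the next, 1 of 54 members (1.85%) against 4.31% of the 11771 genes above the floor, and at 2-fold there were 4 (7.41%, against 9.10%). The highest cluster was a median of 2.84-fold over the median cluster for members and 2.13-fold for all genes above the floor. Cluster 9 was the highest cluster of 7 members (13.0%, against 4.71% of genes) and cluster 6 that of 6 (11.1%, against 3.68%), while microglia-like cluster 18 was the highest for 1 (1.85%, against 18.9%). Excitatory-like clusters together were at least 2-fold over the inhibitory-like for 11 members (20.4%, against 5.48%), the reverse held for 7 (13.0%, against 6.69%), and non-neuronal clusters 8, 14, 18 and 19 were at least 2-fold over the excitatory-like for 5 (9.26%, against 20.9%).

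Kv3 genes gave the clearest inhibitory pattern. Kcnc2, which encodes Kv3.2, averaged 20.2 in the inhibitory-like clusters and 2.12 in the excitatory-like, 9.50-fold apart. It stood at 40.9 (39.8 to 42.1) in cluster 9, 23.2 (22.4 to 24.1) in cluster 13 and 0.303 in cluster 6, its lowest. In clusters 10 and 4, kept out of the inhibitory-like class, it was at 10.4 and 4.79. Kcnc1, which encodes Kv3.1, was highest in cluster 9 too, with 3.36 (3.04 to 3.70) there and 1.30 (1.07 to 1.55) in cluster 12, its next. Kcnc4 was highest in layer 6-like cluster 2, at 0.157 (0.118 to 0.204), and in cluster 3, at 0.144 (0.108 to 0.188). Across the 21 clusters the log2 levels of Kcnc1 and Kcnc2 correlated at 0.76, which describes points that share libraries, depth and clustering.

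Several auxiliary genes were high in the same inhibitory-like clusters. Kcnmb2, the BK beta2 subunit that inactivates BK channels, averaged 9.86 in the inhibitory-like clusters and 0.192 in the excitatory-like, 51.5-fold apart. Its levels were 15.8 (15.1 to 16.5) in cluster 9, 11.5 (10.9 to 12.2) in cluster 13 and 10.4 (9.78 to 11.1) in cluster 12, but 1.27 in cluster 11. In clusters 10 and 4, kept out of the inhibitory-like class, it was at 5.27 and 0.220. Kcns3, an electrically silent subunit that modifies Kv2 channels, stood at 1.15 (0.971 to 1.36) in cluster 9, 0.820 (0.645 to 1.03) in cluster 12 and 0.541 (0.418 to 0.689) in cluster 13, and at 0.0661 (0.0403 to 0.102) in the next cluster, 5. Kcnip1, the KChIP1 partner of Kv4 channels, was at 4.73 (4.29 to 5.19) in Vip-like cluster 12, 4.03 (3.68 to 4.40) in cluster 13 and 3.28 (2.82 to 3.80) in cluster 15, an excitatory-like cluster, and at 0.0145 in cluster 2.

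**Figure D2:**
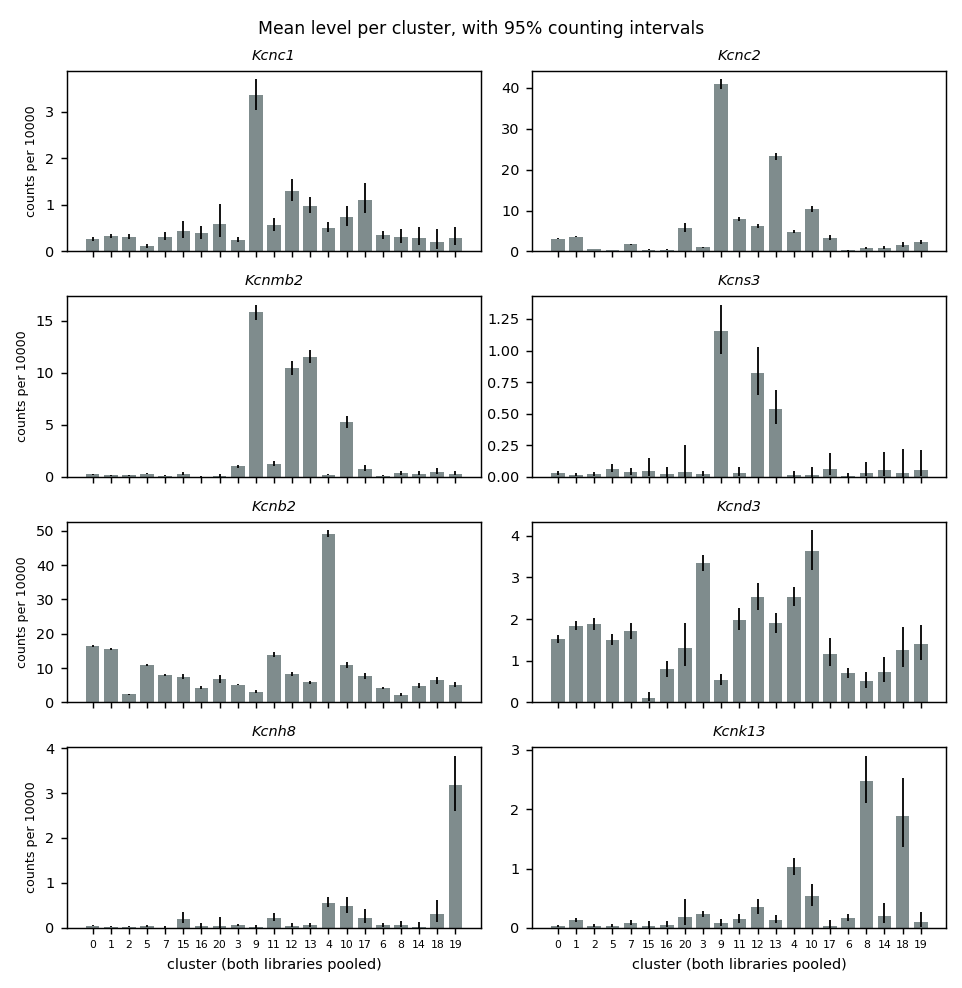
Mean level (counts per 10000, linear axes from 0) of 8 members in the 21 clusters of at least 50 nuclei, both libraries pooled, with bars for the level and lines for 95% counting intervals. Kcnc2 reached 40.9 in cluster 9, Kcnb2 49.2 in cluster 4, Kcnh8 3.17 in cluster 19 and Kcnk13 2.48 in cluster 8.

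Kv2, Kv4 and Kv7 genes peaked elsewhere. Kcnb2, which encodes the delayed rectifier Kv2.2, was at 49.2 (48.1 to 50.2) in unnamed cluster 4, against 16.4 (16.1 to 16.7) in cluster 0, and cluster 4 held 31.5% of its signal. Kcnd2, the Kv4.2 gene of the somatodendritic A-type current, was at 56.6 (55.5 to 57.7) in cluster 4 and 51.3 (50.3 to 52.3) in striatal-like cluster 6, and at 3.78 in cluster 8. The other Kv4 gene above the floor, Kcnd3 (Kv4.3), was at 3.64 (3.19 to 4.13) in cluster 10 and 3.34 (3.16 to 3.53) in cluster 3, whose intervals overlapped, and at 0.113 in cluster 15. Kcnq5, a subunit of the Kv7 M-current that restrains repeated firing, was at 40.7 (39.9 to 41.6) in cluster 6 and 33.4 (32.9 to 33.8) in layer 2/3-like cluster 1. Kcnq3, another M-current subunit, was highest in cluster 0, at 8.48 (8.26 to 8.70).

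The striatal-like cluster 6 was the highest cluster of further members. Kcnab1, the Kv beta1 subunit that makes Kv1 channels inactivate, stood at 8.78 (8.38 to 9.20) there, 7.20 (6.65 to 7.78) in cluster 16 and 5.73 (5.31 to 6.18) in cluster 9. Kcna4, the Kv1.4 gene of a rapidly inactivating current, was at 1.17 (1.02 to 1.32) in cluster 6 and 0.734 (0.614 to 0.870) in cluster 4. For Kcnip2, the KChIP2 partner of Kv4 channels, cluster 6 at 1.02 (0.887 to 1.17) and cluster 9 at 0.899 (0.738 to 1.08) had overlapping intervals. Kcnh4, an EAG family gene, was at 0.316 (0.244 to 0.404) in cluster 6 and 0.263 (0.223 to 0.308) in cluster 1. By contrast Kcnj3 and Kcnj6, the GIRK1 and GIRK2 channels opened by Gi-coupled receptors, were at 0.704 and 0.0872 in cluster 6, their lowest. Kcnj3 was highest in cluster 4, at 13.3 (12.7 to 13.8), and Kcnj6 in cluster 2, at 2.52 (2.36 to 2.69). Kcnj3 averaged 6.37 in the excitatory-like clusters and 5.64 in the inhibitory-like, and Kcnj6 2.01 and 1.03. The log2 levels of Kcnj3 and Kcnj6 correlated at 0.82 across the 21 clusters.

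Excitatory-like clusters led for many remaining members. Kcnip4, the KChIP4 partner of Kv4 channels, averaged 91.1 in the excitatory-like clusters, 54.1 in the inhibitory-like and 11.5 in the non-neuronal, with its highest level of 124 (124 to 125) in cluster 1. Kcnh7, an ERG channel gene, was at 28.8 (28.2 to 29.4) in layer 5-like cluster 5 and 28.8 (28.2 to 29.3) in cluster 2, and at 2.41 in cluster 14. Kcnh5, an EAG family gene, was at 3.31 (3.18 to 3.46) in cluster 0, 2.78 (2.54 to 3.03) in cluster 4 and 0.145 in Vip-like cluster 12. Kcnt2, a sodium-activated Slick channel, was at 10.2 (9.39 to 11.1) in cluster 15 and 6.78 (6.24 to 7.35) in cluster 16. Less clear was Kcnk2, the mechanosensitive two-pore channel TREK1, at 4.83 (4.27 to 5.45) in cluster 15 and 4.79 (4.49 to 5.10) in cluster 6, whose intervals overlapped. It averaged 1.57 in the excitatory-like clusters and 1.46 in the inhibitory-like. Kcnmb4, the BK beta4 subunit of neurons, was at 2.04 (1.76 to 2.37) in layer 6-like cluster 16 and 1.63 (1.31 to 2.0) in cluster 15. The BK pore gene Kcnma1 was flatter and highest in cluster 3, kept out of the excitatory-like class, at 14.8 (14.4 to 15.2). Its median over clusters was 8.23 and its lowest level 1.88, in cluster 8.

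Glial clusters were marked by a few members. Kcnk13, the two-pore channel THIK1 known from microglia, was at 2.48 (2.11 to 2.90) in oligodendrocyte-like cluster 8, 1.88 (1.37 to 2.52) in microglia-like cluster 18 and 1.03 (0.884 to 1.19) in cluster 4. Kcnh8, an ELK channel, was at 3.17 (2.60 to 3.83) in cluster 19 and 0.564 (0.460 to 0.684) in cluster 4. The Kv1.1 gene Kcna1, known from axons, was at 3.26 (2.83 to 3.74) in cluster 8 and 1.47 (1.26 to 1.70) in cluster 9, and Kcna6 (Kv1.6) was at 0.911 (0.691 to 1.18) and 0.454 (0.293 to 0.670) in clusters 8 and 15. Kcnj10, the glial inward rectifier Kir4.1, was below the floor over all nuclei but stood at 0.513 (0.352 to 0.723) in cluster 8, 0.382 (0.206 to 0.648) in cluster 14 and 0.280 (0.131 to 0.524) in cluster 19. Its partner Kcnj16 (Kir5.1) was at 0.362 (0.188 to 0.629) in cluster 19 and 0.259 (0.119 to 0.490) in cluster 14. Kcnk6, below the floor over all nuclei, was at 0.172 (0.0471 to 0.440) in cluster 18 and 0.0227 (0.00291 to 0.0802) in cluster 12. These levels rested on an estimated 4 and 2 UMIs, and their intervals overlapped. These glial clusters had 187 to 474 nuclei at 1502 to 2175 UMIs each, and 3 UMIs there came to a level of 0.0476 to 0.129.

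Between the libraries, 7 of the 54 members were 1.5-fold or more higher in the library labelled KO (13.0%, against 2.90% of all genes above the floor) and 3 were at least 1.5-fold lower (5.56%, against 6.75%). These counts use log2 ratios with a pseudocount of 0.01, which understate the change of low genes. At 2-fold no member passed in either direction, against 0.569% of genes higher and 2.30% lower. The median log2 ratio of the members was 0.019, and that of all genes above the floor -0.060. Positive ratios were found for 30 members (55.6%, against 40.9% of all genes above the floor) and negative for 24. The counting interval of the ratio lay above 1 for 17 members and below 1 for 13. The share over all genes was not worked out for these intervals, so these counts have no background. With 1 library a genotype and clusters in unequal shares, fewer nuclei of a type and less RNA per nucleus cannot be told apart in these averages. The ratio expected from nuclei per cluster alone, with each cluster's profile held equal in both libraries, is therefore given beside each measured ratio.

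**Figure D3:**
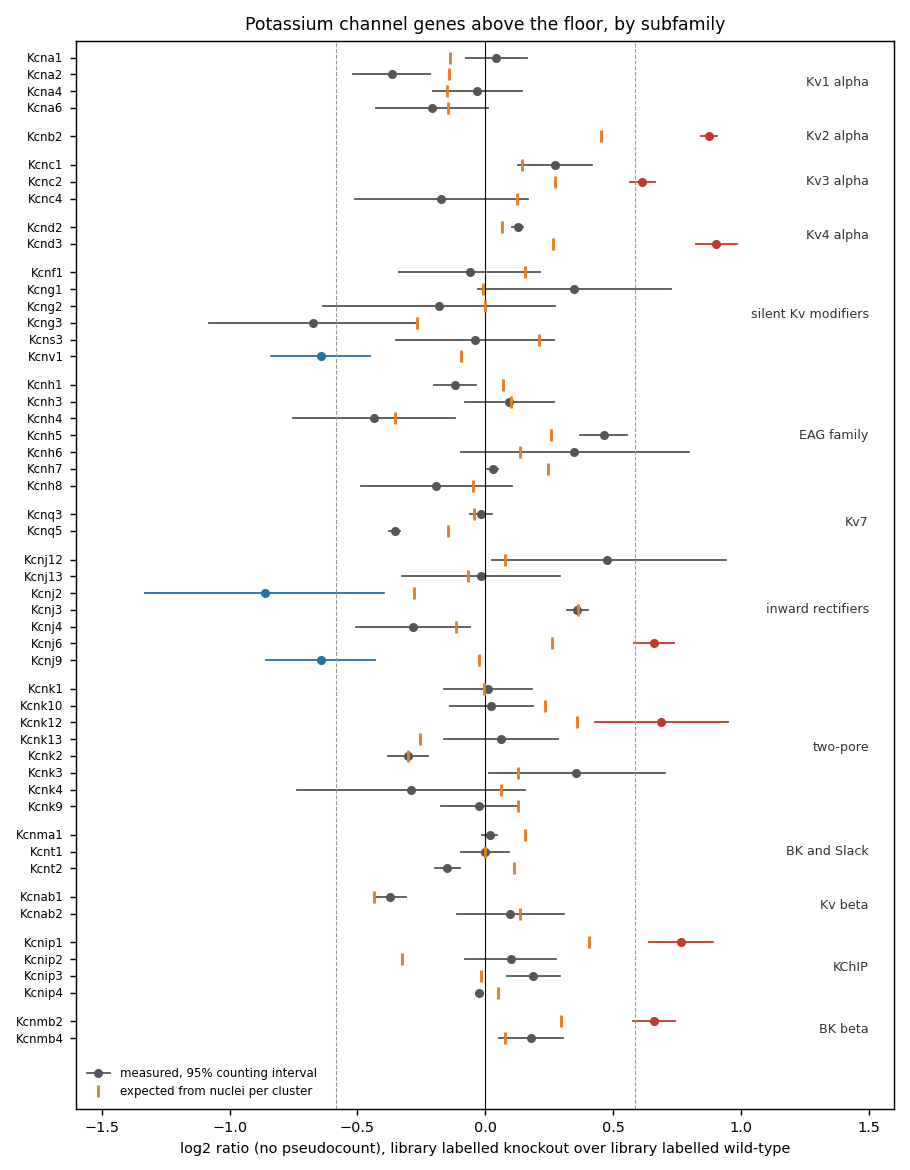
Log2 ratio (library labelled KO over labelled WT) for 51 of the 54 members above the floor, without pseudocount (points, with 95% counting intervals), and the log2 ratio expected from nuclei per cluster (orange ticks, pseudocount 0.01). Red and blue mark members at least 1.5-fold higher or lower with the pseudocount, dashed lines show 1.5-fold, and Kcng3 passed the line only without the pseudocount.

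The 7 higher members came from 7 subfamilies. Kcnd3 (chromosome 3, 105452330 to 105674002, plus strand, mm10) was at 2.23 (2.16 to 2.30) in the library labelled KO and 1.19 (1.14 to 1.25) in that labelled WT, 1.87-fold higher (1.77 to 1.98). Its log2 ratio was 0.90 and the expected one 0.26, the largest difference from the expected value among members above the floor. With nuclei per cluster estimated by least squares that difference was 0.51, below the 0.59 of Kcnip2. Kcnb2 (chromosome 1, 15287254 to 15723750, plus strand) was at 15.2 (15 to 15.4) in the library labelled KO and 8.28 (8.13 to 8.43) in that labelled WT, 1.84-fold higher (1.80 to 1.88) with a log2 ratio of 0.88 and 0.45 expected. Clusters 4, 10 and 17 held 35.5% of the Kcnb2 signal and 19.2% of the Kcnd3 signal. All signal of these 3 clusters was then taken out of the library labelled KO. At the estimated nuclei per cluster, the lowest log2 ratio in the remaining nuclei was 0.61 for Kcnd3 and 0.022 for Kcnb2. Other estimates of nuclei per cluster would move these values and were not used for them. These 3 clusters were picked after the data were seen. Cluster 3, the next highest for Kcnd3, stayed in this value and held 10.52% of the nuclei labelled KO and 5.75% of those labelled WT, and its part in the result was not tested.

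Among the others, Kcnip1 (chromosome 11, 33629339 to 33993152, minus strand) was at 1.03 (0.980 to 1.08) in the library labelled KO and 0.606 (0.564 to 0.650) in that labelled WT, 1.70-fold higher (1.56 to 1.85). Its log2 ratio was 0.76 with 0.41 expected. Its lowest log2 ratio outside clusters 4, 10 and 17, at the estimated nuclei per cluster, was -0.064. Kcnmb2 (chromosome 3, 31902507 to 32200180, plus strand) was at 2.02 (1.96 to 2.09) in the library labelled KO and 1.28 (1.22 to 1.34) in that labelled WT, 1.58-fold higher (1.49 to 1.67), with 0.66 measured and 0.29 expected on the log2 scale. Kcnj6 (chromosome 16, 94748636 to 94997701, minus strand) was at 1.88 (1.82 to 1.94) in the library labelled KO and 1.19 (1.14 to 1.24) in that labelled WT, 1.58-fold higher (1.497 to 1.67), with 0.66 measured and 0.26 expected. For Kcnmb2 and Kcnj6 the lowest log2 ratios outside the 3 clusters, at the same estimate, were 0.53 and 0.56.

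Kcnc2 (chromosome 10, 112271121 to 112467024, plus strand) was at 5.52 (5.41 to 5.62) in the library labelled KO and 3.60 (3.51 to 3.70) in that labelled WT, 1.53-fold higher (1.48 to 1.58). Its log2 ratio was 0.61 with 0.27 expected and 0.36 as the lowest outside clusters 4, 10 and 17. Kcnk12 (chromosome 17, 87745801 to 87797994, minus strand), a two-pore subunit known as THIK2, was at 0.209 (0.188 to 0.231) in the library labelled KO and 0.130 (0.112 to 0.150) in that labelled WT, 1.61-fold higher (1.35 to 1.93), with 0.65 measured, 0.36 expected and 0.12 as the lowest outside. The inhibitory-like clusters, where Kcnc2 and Kcnmb2 were high, held an estimated 13.3% of the nuclei labelled KO and 12.3% of those labelled WT. Inhibitory markers were also raised in neuroblast-like cluster 10 (6 of 6) and unnamed cluster 4 (5 of 6). Cluster 10, with Kcnc2 at 10.4 and Kcnmb2 at 5.27, held 3.88% of the nuclei labelled KO and 2.83% of those labelled WT, and cluster 4, with Kcnc2 at 4.79 and Kcnmb2 at 0.220, held 11.3% of those labelled KO and 3.32% of those labelled WT. General inhibitory markers were higher for 3 of 6 (sum 4.03 in the library labelled KO, 3.30 in that labelled WT), and Pvalb markers for 3 of 6 (sum 0.635 labelled KO, 1.04 labelled WT), with none at 0, and their part in the result was not tested. Kcnc1, the other Kv3 gene of cluster 9, was 1.21-fold higher (1.09 to 1.34), at 0.547 in the library labelled KO and 0.453 in that labelled WT.

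**Figure D4:**
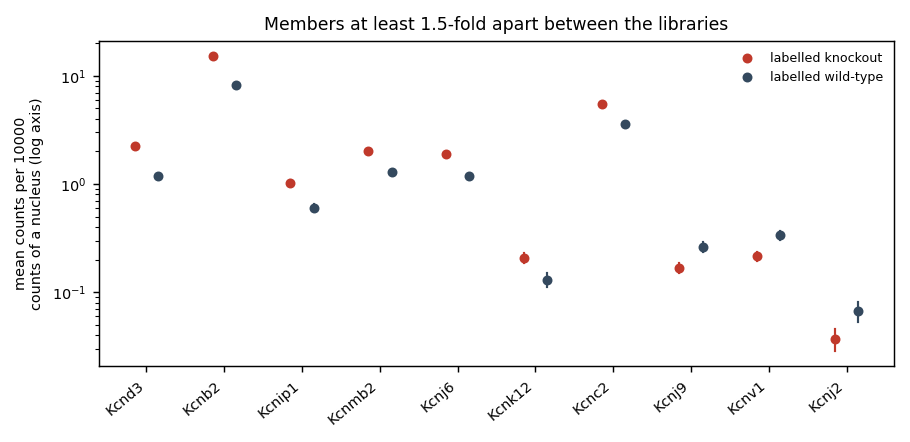
Mean level (counts per 10000, log axis) of the 10 members at least 1.5-fold apart, in the library labelled KO (left, red) and that labelled WT (right, dark), with 95% counting intervals. The 7 members from Kcnd3 to Kcnc2 were higher in the library labelled KO, and Kcnj9, Kcnv1 and Kcnj2 were lower, without overlap of the intervals.

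Kcnj9, Kcnv1 and Kcnj2 were the 3 lower members. Kcnj9 (chromosome 1, 172320501 to 172329318, minus strand), which encodes GIRK3, was at 0.168 (0.150 to 0.187) in the library labelled KO and 0.262 (0.237 to 0.289) in that labelled WT, 1.56-fold lower (1.35 to 1.81). Its log2 ratio was -0.61 with -0.025 expected, and the difference of -0.59 was the lowest among the 54 members above the floor. Kcnv1 (chromosome 15, 45106284 to 45114920, minus strand), a silent subunit that modifies Kv2 channels, was at 0.215 (0.195 to 0.237) in the library labelled KO and 0.336 (0.306 to 0.367) in that labelled WT, 1.56-fold lower (1.37 to 1.79), with -0.62 measured and -0.10 expected. Kcnj2 (chromosome 11, 111066164 to 111076821, plus strand), the strong inward rectifier Kir2.1, was at 0.0366 (0.0286 to 0.0462) in the library labelled KO and 0.0665 (0.0536 to 0.0816) in that labelled WT, 1.82-fold lower (1.32 to 2.51), with -0.71 measured and -0.28 expected. The Kcnj2 values rested on an estimated 71 UMIs labelled KO and 91 labelled WT. All signal of clusters 6, 8, 14, 18 and 19 was then taken out of the library labelled WT. At the estimated nuclei per cluster, the highest log2 ratios in the remaining nuclei were -0.66 for Kcnj9, -0.45 for Kcnv1 and -0.42 for Kcnj2.

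GIRK genes differed among themselves. Kcnj3 was 1.28-fold higher (1.25 to 1.32), at 6.87 in the library labelled KO and 5.35 in that labelled WT, with a log2 ratio of 0.36 and 0.36 expected. By the main estimate of nuclei per cluster, Kcnj6 was above its expected value, Kcnj3 at it and Kcnj9 below it. The Kcnj3 difference from expected depended on the estimate, at 0.070 from genes of 1 cluster only and -0.23 by least squares. By the same 2 estimates it was 0.44 and 0.29 for Kcnj6, and -0.62 and -0.51 for Kcnj9. Kcnj5, the fourth GIRK gene, was below the floor (0.00132 labelled KO, 0.000948 labelled WT). The other Kir2 genes above the floor stood closer to 1, with Kcnj4 (Kir2.3) 1.22-fold lower (1.04 to 1.42) and Kcnj12 (Kir2.2) 1.39-fold higher (1.02 to 1.92).

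Members of the same subfamily differed in their ratios. Kcnd2 was 1.09-fold higher (1.08 to 1.11), at 24.1 in the library labelled KO and 22.1 in that labelled WT, beside 1.87-fold for Kcnd3. Kcnq5 was 1.28-fold lower (1.26 to 1.30), while Kcnq3 had a ratio of 0.987 (0.958 to 1.02). For Kcnq5 the levels were 15.4 in the library labelled KO and 19.7 in that labelled WT, with a log2 ratio of -0.35 and -0.15 expected. Kcnip4 was at 67.2 (66.9 to 67.6) in the library labelled KO and 68.4 (68.0 to 68.8) in that labelled WT, and Kcnip3 was 1.14-fold higher (1.06 to 1.22). Kcnip2 was at 0.311 (0.287 to 0.337) in the library labelled KO and 0.290 (0.264 to 0.318) in that labelled WT, a log2 ratio of 0.10 where -0.33 was expected.

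The remaining named members above the floor differed by less than 1.5-fold with the pseudocount. Higher in the library labelled KO were Kcnh5 (1.38-fold, 1.29 to 1.47), which lay next below the 1.5-fold line, and Kcnk3, the acid-sensitive channel TASK1 (1.28-fold, 1.01 to 1.63). Lower were Kcng3, a silent subunit (log2 ratio -0.57, next above the lower line, or 1.59-fold without the pseudocount, 1.202 to 2.12), Kcnab1 (1.30-fold, 1.24 to 1.35), Kcna2, the axonal Kv1.2 (1.29-fold, 1.16 to 1.43), Kcnh4 (1.35-fold, 1.09 to 1.69) and Kcnk2 (1.23-fold, 1.17 to 1.30). Kcnab1, Kcnh4 and Kcnk2, which were high in striatal-like cluster 6, had log2 ratios of -0.37, -0.39 and -0.30 with -0.44, -0.35 and -0.30 expected. Kcnh1, Kcnt2 and Kcnh7, which were spread over excitatory-like clusters, had ratios of 0.921 (0.870 to 0.976), 0.902 (0.872 to 0.933) and 1.02 (1.01 to 1.04). Their log2 ratios were -0.117, -0.149 and 0.029 with 0.067, 0.114 and 0.244 expected. The ratio intervals of Kcnma1 (0.991 to 1.03), Kcnt1 (0.937 to 1.07), Kcna6 (0.743 to 1.01), Kcnk4 (0.600 to 1.11) and Kcnc4 (0.703 to 1.12) held 1. Among members above the floor, Kcnd3, Kcnb2, Kcnip2 and Kcnj6 stood furthest above the expected value, and Kcnj9, Kcnv1, Kcnj2 and Kcnk4 those furthest below. At least 1.2-fold beyond the expected value were 11 members higher (20.4%, against 9.32% of genes) and 6 lower (11.1%, against 14.9%). The measured and expected ratios had the same sign for 39 of 54 members (72.2%, against 77.3% of genes).

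**Figure D5:**
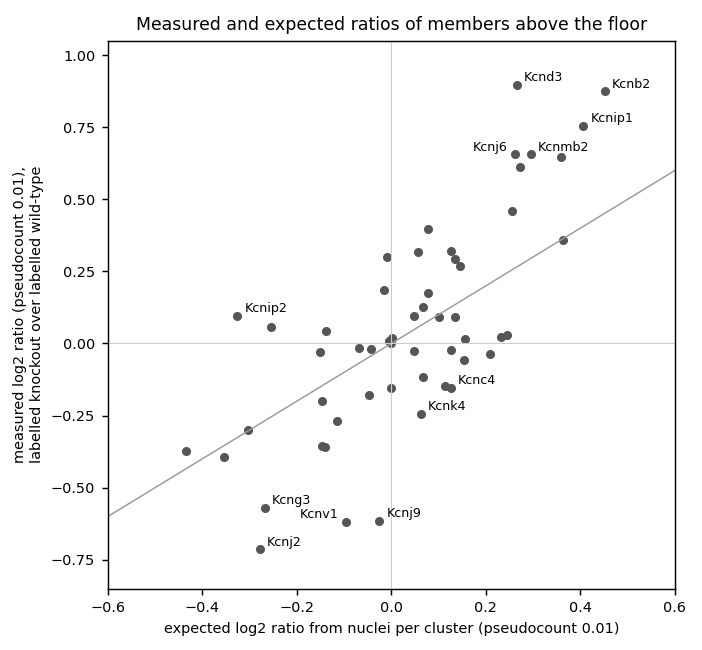
Measured log2 ratio (vertical axis) against the log2 ratio expected from nuclei per cluster (horizontal axis) for the 54 members above the floor, both with a pseudocount of 0.01, with the line of equality in grey. The 6 members furthest above and the 6 furthest below the line are named, with Kcnd3 at 0.26 expected and 0.90 measured and Kcnj9 at -0.025 and -0.61.

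Below the floor, Kcnj10 was at 0.0201 (0.0128 to 0.0299) in the library labelled KO and 0.0748 (0.0573 to 0.0960) in that labelled WT, 3.73-fold lower (2.29 to 6.27), from an estimated 24 UMIs labelled KO and 61 labelled WT. Its log2 ratio was -1.5 and the expected one -0.88, and clusters 6, 8, 14, 18 and 19 held 74.3% of its signal. The difference from the expected value was -0.61, and -0.028 with nuclei per cluster estimated by least squares. All 9 oligodendrocyte and all 9 astrocyte markers were lower as well, with the sums given above, and their part in the result was not tested. Kcnj16 was 2.47-fold lower (1.21 to 5.21). Kcnab3, a Kv beta subunit, was at 0.0589 (0.0478 to 0.0717) in the library labelled KO and 0.0323 (0.0235 to 0.0433) in that labelled WT, 1.82-fold higher (1.27 to 2.66), with 0.70 measured and 0.35 expected on the log2 scale. Kcnq1 was 1.76-fold higher (1.28 to 2.45), but its signal of 0.0598 in the library labelled KO and 0.0339 in that labelled WT lies under Kcnq1ot1, an antisense RNA at a mean of 5.08. Strand-specific counting is not stated, so reads of Kcnq1 and Kcnq1ot1 cannot be told apart, and the same holds for Kcnj13 within Gigyf2, Kcnab1 with A330015K06Rik, Kcnab2 with Nphp4 and Kcna6 with Gm26673. None of the 4 KCNE genes reached the floor, and none was above 0.00792 in either library.

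Genes that work with potassium channels also differed from each other. Of 31 partner genes 26 were above the floor, with a median log2 ratio of -0.025, 1 at least 1.5-fold higher (against 2.90% of all genes above the floor) and 3 lower (against 6.75%). The higher one was Dpp6, which encodes a Kv4 auxiliary subunit, at 8.38 in the library labelled KO and 4.002 in that labelled WT, 2.09-fold higher (2.03 to 2.16) with a log2 ratio of 1.06 and 0.47 expected. Next came the pacemaker channel Hcn3 (1.55-fold, 1.21 to 2.01, log2 0.56) and Fgf13 (1.48-fold, 1.40 to 1.56). Adam23, a receptor of LGI proteins, was 1.75-fold lower (1.66 to 1.83), the secreted Lgi2 1.646-fold (1.37 to 1.99) and the anchoring protein Akap5 1.57-fold (1.28 to 1.93). Of 13 potassium transport genes 12 were above the floor, with a median of -0.19, none at least 1.5-fold higher (against 2.90% of all genes) and 2 lower (against 6.75%), among them Slc24a4. The exchangers Slc24a4 and Slc24a2 were 1.54-fold (1.38 to 1.72) and 1.37-fold lower (1.33 to 1.41), Slc24a3 was 1.36-fold higher (1.30 to 1.42), and Slc12a5 had a log2 ratio of 0.033.

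Promoters were read for the E-box CACGTG, the palindromic motif bound by NPAS2 and CLOCK with BMAL1, to show what lies upstream of the members. RefSeq start sites (GRCm38.p6) were found for 62 of 86 members, in 86 windows of 250 bases upstream of a start. The motif stood in 4 of 62 members (6.45%), against 6.86% of all genes with a window, and in 5 of 86 member windows, against 6.02% of all windows. Its presence is a description of the letters and not of binding. Of the members above the floor it was found in Kcnj2, Kcnh4 and Kcnab1, at a rate over all members close to that of all genes. The 4 windows of these 3 genes are shown 5′ to 3′ on the strand of the gene, ending at the base before the start, with the E-box in capitals. They are Kcnj2 chr11:111065914-111066163 (plus strand), Kcnh4 chr11:100759779-100760028 (minus strand), and Kcnab1 chr3:65108764-65109013 and chr3:65187853-65188102 (plus strand), with the motif 78, 81, 156 and 39 bases before the start.
Kcnj2: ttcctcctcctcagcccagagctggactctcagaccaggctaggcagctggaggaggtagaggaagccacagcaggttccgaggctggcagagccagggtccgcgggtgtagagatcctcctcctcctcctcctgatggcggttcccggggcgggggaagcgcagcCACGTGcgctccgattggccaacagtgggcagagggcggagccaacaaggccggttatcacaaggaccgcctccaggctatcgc
Kcnh4: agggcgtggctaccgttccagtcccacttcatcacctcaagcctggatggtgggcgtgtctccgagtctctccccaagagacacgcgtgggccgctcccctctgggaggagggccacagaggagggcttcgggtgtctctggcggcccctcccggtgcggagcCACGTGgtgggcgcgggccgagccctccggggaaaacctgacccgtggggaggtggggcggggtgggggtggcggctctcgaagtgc
Kcnab1, first start: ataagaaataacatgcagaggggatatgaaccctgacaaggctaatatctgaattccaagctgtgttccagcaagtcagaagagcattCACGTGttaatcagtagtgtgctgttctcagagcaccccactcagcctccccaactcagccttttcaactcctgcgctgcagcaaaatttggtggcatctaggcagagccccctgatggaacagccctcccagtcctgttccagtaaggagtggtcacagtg
Kcnab1, second start: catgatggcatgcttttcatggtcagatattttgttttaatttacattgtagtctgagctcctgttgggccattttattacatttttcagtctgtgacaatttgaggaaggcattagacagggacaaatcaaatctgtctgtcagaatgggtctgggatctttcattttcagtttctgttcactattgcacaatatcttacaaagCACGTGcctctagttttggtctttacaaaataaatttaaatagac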

How the data were processed

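Single-nucleus RNA-seq of the medial prefrontal cortex gave 1 library per genotype. The deposited values are the authors' average signal of a gene, in 1 column a genotype and 1 for each of 23 clusters made over both libraries, and every column sums to 10000. The genome build was mm10, per the submitters' processing notes. Not given in the sources used here are the aligner, counting, filters, clustering and treatment of doublets. Gene positions came from GENCODE release M21, in which 30976 identifiers were found.

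Whole numbers of nuclei were solved from the identity between genotype and cluster averages (largest deviation 4.9e-08 nuclei). Signals equal to 1 UMI in 1 nucleus, in genes listed in at most 10 clusters, gave depths and the estimated share of each cluster in each library (9331 values). UMI numbers, exact Poisson intervals of a level and Clopper-Pearson intervals of a ratio followed from these depths. On simulated data 95.6% of ratio intervals held the true ratio over 11759 genes, and shares of clusters missed by a median of 3.65 and at most 11.3 percentage points. The simulation kept each cluster's profile equal in both libraries, apart from a set of changed genes. On the real data the main, 1-cluster and least-squares estimates differed by more for some clusters. The share labelled KO was 81.3%, 70.4% and 100% for cluster 4, 29.1%, 42.2% and 9.13% for cluster 8, but 59.5%, 59.3% and 57.2% for cluster 12. Log2 ratios use a pseudocount of 0.01 and a floor of 0.05. Counts of members past 1.5-fold were set beside those of all genes above the floor, with no test.

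The named members are the 12 highest and 12 lowest log2 ratios, the 6 largest differences from expected each way, those with a mean of at least 1, and those with the steepest cluster profile per subfamily. Of these, the rarest genes are not described singly, and some genes are not reported here. Clusters were named from marker lists. The members and lists were chosen with earlier results of these data known. Alternatives were other floors, pseudocounts, folds, centring and estimators of nuclei per cluster. Python 3.11.15, numpy 2.4.6, scipy 1.17.1, pandas 2.3.3 and matplotlib 3.10.9 were used.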

Additional observations from a re-analysis of the deposited data

How the results depend on the processing

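The count of members at least 1.5-fold higher, 7, was 6 to 10 under other floors, pseudocounts and centring and 0 at 2-fold. The number of members ranged from 44 to 86 with the floor. Under the settings at 1.5-fold 11.1% to 15.9% of members were higher, against 1.49% to 3.85% of genes. At 2-fold the share of genes was 0.569%. The count at least 1.5-fold lower, 3, depended on these choices, with 7 without a floor, 5 at a floor of 0.02, 1 after centring on the median of all genes, 0 with a pseudocount of 0.1 and 0 at 2-fold. In the same order the share of all genes lower was 7.59%, 8.87%, 5.41%, 2.59% and 2.30%. The median log2 ratio of members was 0.078 after centring, since the median of all genes was below 0. The count of members with a highest cluster well over the next was 4 at a fold of 2 (7.41%, against 9.1% of genes). The difference from expected had the same sign under each of the other 2 estimators of nuclei per cluster for 46 of 51 named members, with a median over members of 0.023 from genes of 1 cluster and 0.0057 by least squares. By least squares it was 0.07 for Kcnip1, 0.12 for Kcnb2 and 0.04 for Kcnk12, against 0.51 for Kcnd3. It fell from 0.36 to 0.19 for Kcnmb2, from 0.34 to 0.17 for Kcnc2 and from 0.39 to 0.29 for Kcnj6. Kcnj10 moved to -0.028. Outside clusters 4, 10 and 17, limits chosen after seeing the data, the lowest log2 ratio of Kcnip1 reversed to -0.064. Those of the other 6 higher members were positive at the main estimate of nuclei per cluster. These limits were not worked out with the other estimators, so their signs there are not known. No paired analysis was possible because each genotype had 1 library. The depth limits members near the floor, and no replicate shows how far 2 pools of the same genotype would differ.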
